A study of Sus scrofa with 12 samples.

Results

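Of the 20674 genes in the deposited table of sow endometrium, 47 are named as chemokines or chemokine receptors and were examined here. They are the genes whose symbol starts with CCL, CXCL, CCR, CXCR or XCR followed by a digit, together with CX3CL1, CX3CR1 and XCL1. There were 30 ligands and 17 receptors among them. The deposited annotation places all 47 in the KEGG chemokine signaling pathway, 6 in the intestinal network for IgA production (CCL25, CCL28, CXCL12, CCR9, CCR10 and CXCR4) and 7 in the Toll-like receptor pathway. On Sscrofa11.1, chromosome 12 carries 12 of them, chromosome 13 carries 10 and chromosome 8 carries 6.

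Poly(A) RNA of endometrium from Landrace × Yorkshire sows was sequenced in 12 libraries, 3 for each of 4 diets fed for 114 days from breeding. L − N was the low-fiber diet with 3.73% crude fiber (the group called LF in the deposited description), and L + N was the same diet with 0.05% N-carbamylglutamate (NCG), a compound that activates arginine synthesis. H − N was the high-fiber diet with 7.46% crude fiber (HF), in which soybean bran and beet pulp replaced part of the corn, and H + N was that diet with 0.05% NCG. The L − N group served as the control, and all groups were pregnant sows of the same cross, so the data hold no other breed and no sow that was not bred. The labels do not say that each library came from its own sow, so the p-values measure the spread between these libraries, which may be partly technical.

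Chemokines are small secreted proteins that direct the movement of leukocytes along a gradient, and their receptors are G protein-coupled receptors on the surface of the migrating cells. Most CC ligands act on monocytes, eosinophils and lymphocytes, whereas CXC ligands include, among others, those that attract neutrophils through CXCR2 and those induced by interferon that attract T and NK cells through CXCR3. In the endometrium of the pregnant uterus they are known for setting which leukocytes enter the tissue. A whole-tissue library mixes the epithelium, which makes many ligands, with the leukocytes, which carry most receptors, and in such bulk samples fewer cells of a type and less RNA per cell cannot be told apart.

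Libraries held 14369781 to 19309724 counts in total, and 3 counts corresponded to 0.146 to 0.208 CPM, the count scaled to the size of the library. The markers of epithelium, stroma, smooth muscle, endothelium, macrophages and lymphocytes were present in every group, and of the listed markers found in the table only CPA3, a mast cell protease, was at 0 in every library. L − N replicate 1 stood apart, with a summed CPM of 5 smooth muscle markers of 5052 against 788.8 to 1975 in the other 11 libraries and the highest sum of erythrocyte markers (751.7). The members together took 560.1 CPM (L + N replicate 3) to 1108 CPM (H − N replicate 3) of a library. A filter on low counts kept 15351 genes for testing, among them 39 members (23 ligands and 16 receptors). In the sentences that follow, values of a group are given for replicates 1, 2 and 3 in that order.

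Level per gene length, as deposited in FPKM (reads of a gene divided by its length and by the library total), spanned more than 3 orders of magnitude among the ligands. CCL21, which guides dendritic cells and naive T cells toward lymphatic vessels, had the highest mean over the 12 libraries, 113.5 FPKM. CCL14 (45.1 FPKM), CXCL10 (38.3 FPKM), CXCL16 (35.8 FPKM), CCL5 (34.4 FPKM) and CXCL14 (31.1 FPKM) followed. The ranges of these 6 genes over the libraries overlapped, from 24.1 to 282.2 FPKM for CCL21 and from 16.7 to 81.2 FPKM for CCL14. Their order was not the same in every library. Within libraries, CCL21 was above CCL14 except in L − N replicate 2 (24.1 against 81.2 FPKM). CXCL9 had a mean of 26.8 FPKM, CCL19 of 22.0, CCL28 of 20.8, CX3CL1 of 15.3, CCL8 of 15.2 and CCL2 of 14.2. For CXCL8 and CXCL11 the mean level does not describe most libraries, as their medians were 2.36 and 1.95 FPKM against means of 14.6 and 12.3 FPKM.

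Among the receptors, CXCR4, the receptor of CXCL12, had the highest mean level at 38.1 FPKM. CCR1, carried by macrophages and T cells, had a mean of 15.0 FPKM, and CX3CR1, the receptor of CX3CL1 on monocytes, had 11.03 FPKM. CCR2, which draws monocytes toward CCL2, had 4.999 FPKM. The receptors tested that had a lower mean ranged from 1.94 FPKM for CXCR6 to 0.147 FPKM for CXCR5, the receptor of B cell follicles. The ranges of CXCR4, CCR1, CX3CR1, CCR2 and CXCR6 overlapped with those of their neighbours in this order.

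**Figure D1:**
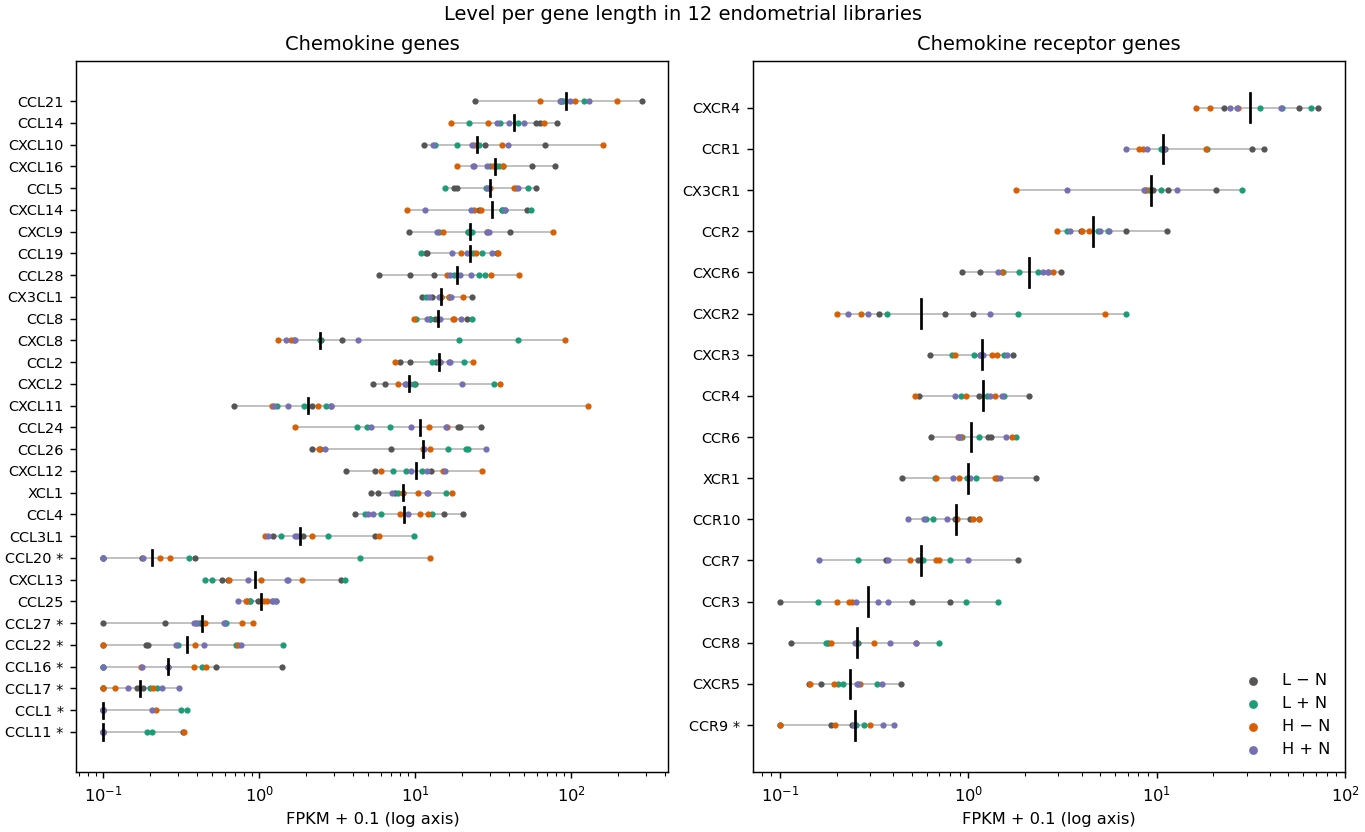
Deposited FPKM plus 0.1 of the 30 ligands (left) and 16 of the receptors (right) on a log axis, with 1 point per library colored by group, a bar at the median of the 12 libraries and an asterisk at the 8 members removed by the filter on low counts. CCL21 and CXCR4 head the 2 panels, and CXCL11 shows a single point far above the other libraries, while CXCL8 and CXCR2 show a few.

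The 8 members removed by the filter were CCL1, CCL11, CCL16, CCL17, CCL20, CCL22, CCL27 and CCR9. Of these, 7 had between 6 counts (CCL1 and CCL11) and 52 counts (CCL22) in all 12 libraries together, which is near the limit of detection at this depth. CCL11 encodes eotaxin, an attractant of eosinophils, CCR9 is the receptor of CCL25 on gut-homing lymphocytes, and CCL17 overlaps CIAPIN1 on the opposite strand. CCL20, the ligand of CCR6, was different, since 155 of its 228 counts came from H − N replicate 3 and 59 from L + N replicate 2. Its CPM was 10.7 and 3.43 in these libraries and at most 0.251 in the other 10.

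The members varied more between replicates than most genes did. The SD of log2 CPM within groups had a median of 0.72 over the 39 members, compared with 0.28 over all genes tested. It was highest for CXCL8 (2.14), CXCR2 (2.12), CXCL11 (1.98) and CCR3 (1.60), and lowest for CCL25 (0.31) and CCR10 (0.31). High values gathered in certain libraries. L − N replicate 2 had the highest CPM for 15 of the 39 members (38.5%, against 12.6% of all genes), and H − N replicate 3 had it for 9 (23.1%, against 10.3% of all genes). H + N replicates 2 and 3 had it for 0 members, against 6.15% and 14.1% of all genes.

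**Figure D2:**
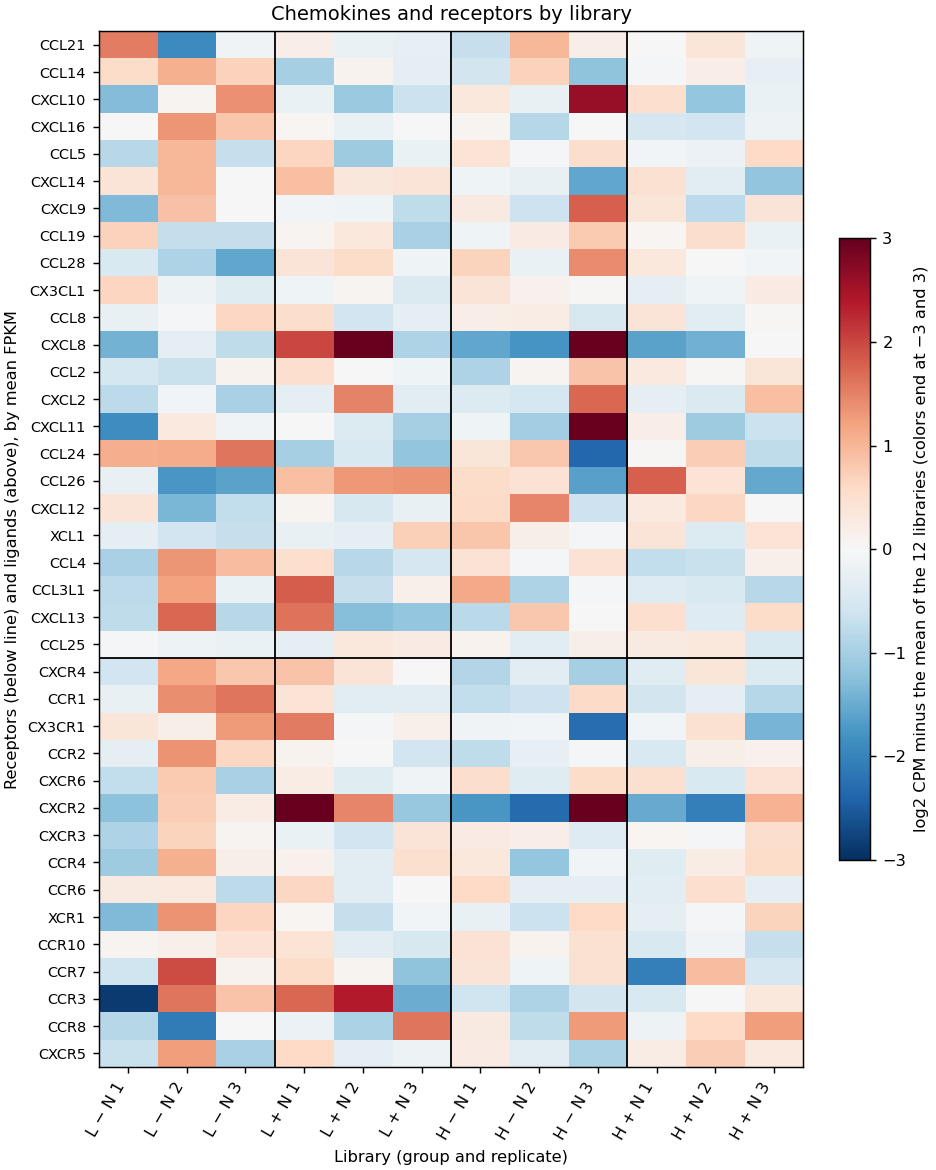
The log2 CPM of 38 tested members minus the mean of each over the 12 libraries, with ligands above the line and receptors below it, each by mean FPKM, and colors ending at −3 and 3. L − N replicate 2 is red for most receptors, and H − N replicate 3 is dark red for CXCL10, CXCL11, CXCL8 and CXCR2.

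Across 8 comparisons and 39 members, 312 tests were made with edgeR's quasi-likelihood test, and p-values were adjusted over all genes by Benjamini-Hochberg. Differential expression required both an adjusted p under 0.05 and an absolute log2 fold change above 1. By this rule 2 of the 312 tests passed, CCL28 in H − N against L − N and CXCL16 in H + N against L − N. An unadjusted p under 0.05 was found in 44 of the 312.

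In H − N against L − N, 1 member was differentially expressed, where 2.91% of all genes were, and 12 had an unadjusted p under 0.05 (24.4% of all genes). H + N against L − N also gave 1 member that was differentially expressed, where 3.58% of all genes were, and 4 had an unadjusted p under 0.05 (27.5% of all genes). In the L + N libraries, 0 members were differentially expressed from L − N with edgeR, where 3.99% of all genes were, 7 had an unadjusted p under 0.05 (27.8% of all genes), and DESeq2 called 4. The share of all genes that DESeq2 called is not given here or below. The groups did not overlap for 5 of the 39 members in H − N against L − N (25.4% of all genes), 5 in L + N against L − N (35.3%), 6 in H + N against L − N (28%), 3 in H + N against H − N (13%) and 0 in H + N against L + N (11%). The shares of members were thus below those of all genes for every one of these non-overlap counts.

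The main effects gave fewer calls. For fiber, both high-fiber groups against both low-fiber groups, edgeR called 0 members (0.0261% of all genes), 8 had an unadjusted p under 0.05 (19.5% of all genes), and DESeq2 called 0. For NCG, both supplemented groups against both groups without it, edgeR called 0 members (1.8% of all genes), 6 had an unadjusted p under 0.05 (23.6% of all genes), and DESeq2 called 1. For the interaction, which sets the NCG effect under high fiber against that under low fiber, edgeR called 0 members (0% of all genes), 5 had an unadjusted p under 0.05 (12.8% of all genes), and DESeq2 called 2. Between H + N and H − N, edgeR and DESeq2 called 0 members (0% of all genes with edgeR) and 2 had an unadjusted p under 0.05 (8.67% of all genes). Between H + N and L + N, both called 0 members (0% of all genes with edgeR) and 0 had an unadjusted p under 0.05 (4.68% of all genes).

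By direction alone, ligands and receptors stood on different sides of the fiber comparison. The log2 fold change for fiber was below 0 for 13 of 16 receptors, with a median of −0.30, and above 0 for 15 of 23 ligands, with a median of 0.22. Over all genes 53.7% were above 0 and the median was 0.02. Under another scaling (RLE) the counts were also 13 of 16 and 15 of 23. Without NCG, in H − N against L − N, 11 of 16 receptors were below 0 and 15 of 23 ligands above 0. With NCG, in H + N against L + N, 8 of 16 receptors were below 0 and 12 of 23 ligands above 0. The split was thus not seen between the groups fed NCG. For NCG, 16 of 23 ligands were below 0 and 9 of 16 receptors were above 0. No test of these directions was made, since the members share libraries.

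**Figure D3:**
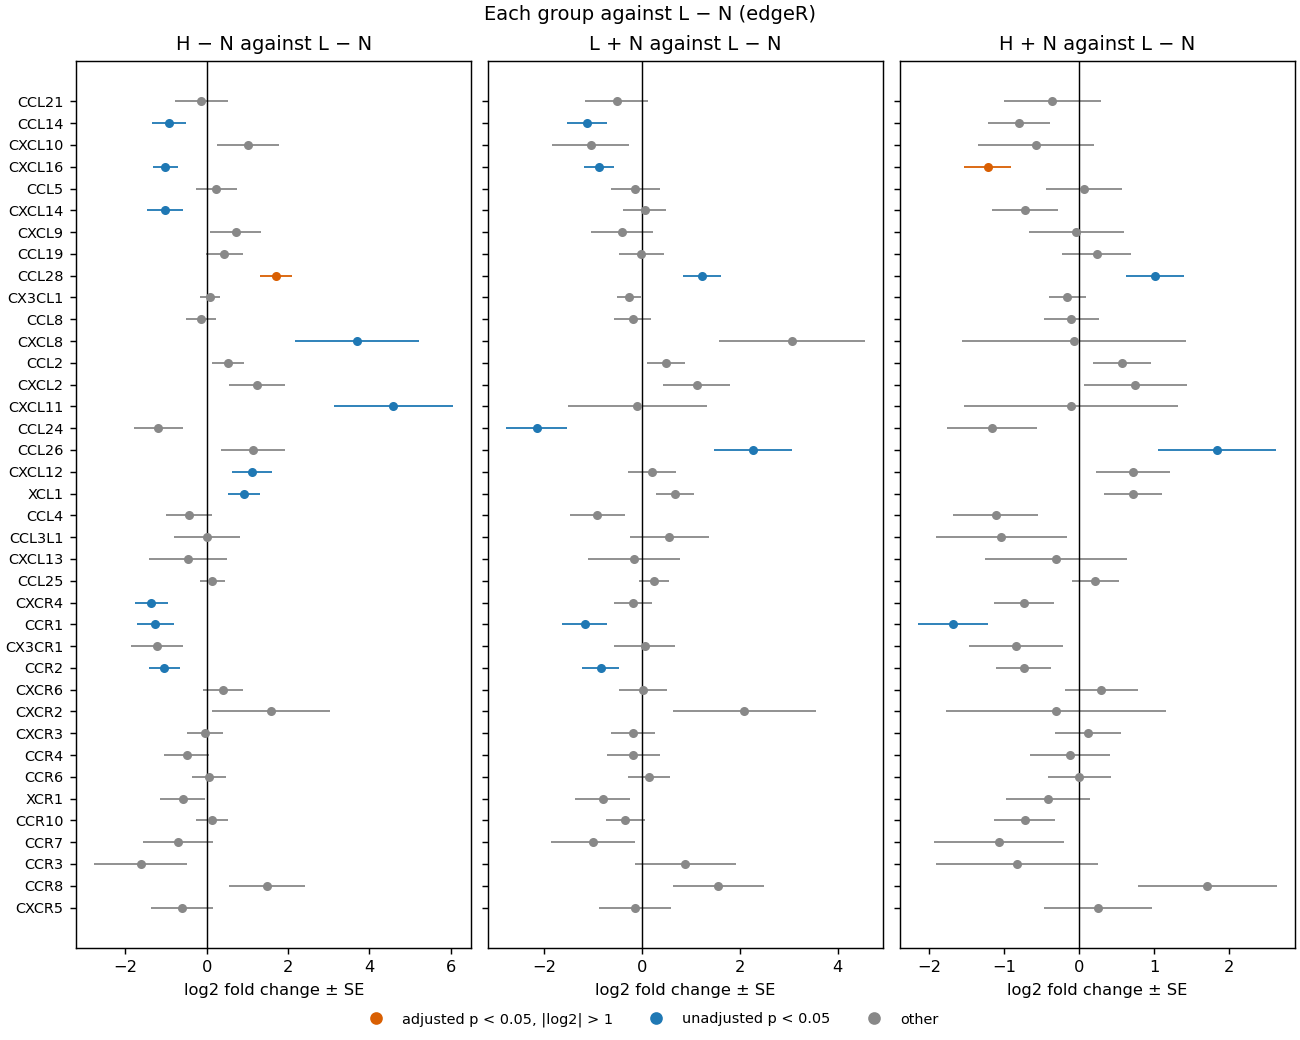
The log2 fold change of 38 tested members with its standard error for H − N, L + N and H + N against the same L − N libraries, from the edgeR fit over 4 groups, with a separate horizontal scale in each panel. CCL28 in the left panel and CXCL16 in the right panel are the only members past both thresholds.

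CCL28, a mucosal chemokine of epithelial cells that attracts IgA-secreting plasma cells through CCR10 and eosinophils through CCR3, rose in H − N. The gene lies on chr16:27990024-28010859, minus strand, and overlaps no other gene. Its CPM was 11.8, 8.59 and 5.44 in L − N, 21.3, 24.1 and 15.0 in L + N, 26.2, 14.1 and 43.7 in H − N, and 20.2, 16.5 and 15.3 in H + N. Every library of the other 3 groups lay above every L − N library, an arrangement found in that direction for 4.28% of all genes, and the highest value by far was that of H − N replicate 3.

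Group means of CCL28 were 8.60 ± 3.17 CPM for L − N, 20.1 ± 4.68 CPM for L + N, 28.0 ± 14.9 CPM for H − N and 17.3 ± 2.57 CPM for H + N, with SD over 3 libraries. Relative to L − N, the edgeR log2 fold change of H − N was 1.70 ± 0.39 (SE), which is 3.25-fold higher, with an adjusted p of 0.0352. It was 1.23 ± 0.39 in L + N (adjusted p = 0.0678) and 1.01 ± 0.39 in H + N (adjusted p = 0.118), neither of which passed. In L + N it passed with DESeq2 (adjusted p = 0.0174) and, with edgeR, when L − N replicate 1 was left out (0.0433) and when replicate 2 (0.0392) or 3 (0.0376) of the H − N group was. The interaction was −1.92 ± 0.54 with an adjusted p of 0.257, and DESeq2 called it, with an adjusted p of 0.0384.

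The H − N call of CCL28 depended on which libraries entered the fit, while its log2 fold change stayed above 1. It was 1.70 without L − N replicate 2 (adjusted p = 0.0965) and 1.46 when replicate 3 of that group was left out (0.141). Omitting H − N replicate 1 gave 1.75 (0.0798), and omitting its replicate 3 gave 1.23 (0.0915). Among libraries outside the comparison, the adjusted p was 0.0529 and 0.0512 without replicate 1 or 2 of L + N and 0.0501 without H + N replicate 1, with a log2 fold change of 1.68 in each. A fit of the 2 groups alone gave 1.67 (adjusted p = 0.136).

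Beside CCL28, the summed CPM of 8 markers of luminal and glandular epithelium was 1007 to 1437 with L − N, 1421 to 1477 with L + N, 1517 to 2307 with H − N and 1192 to 1295 with H + N, its highest value being also in H − N replicate 3. None of the 8 was at 0, and 0 of them were differentially expressed in any comparison. The part of the epithelium in the difference was not tested. The receptor CCR10 had a CPM of 0.828, 0.878 and 1.08 in L − N and 1.09, 0.832 and 1.10 in H − N, and these ranges overlapped. CCR10 was at 0.527, 0.706 and 0.429 in H + N, below each L − N and each H − N library, but with no call in either comparison.

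**Figure D4:**
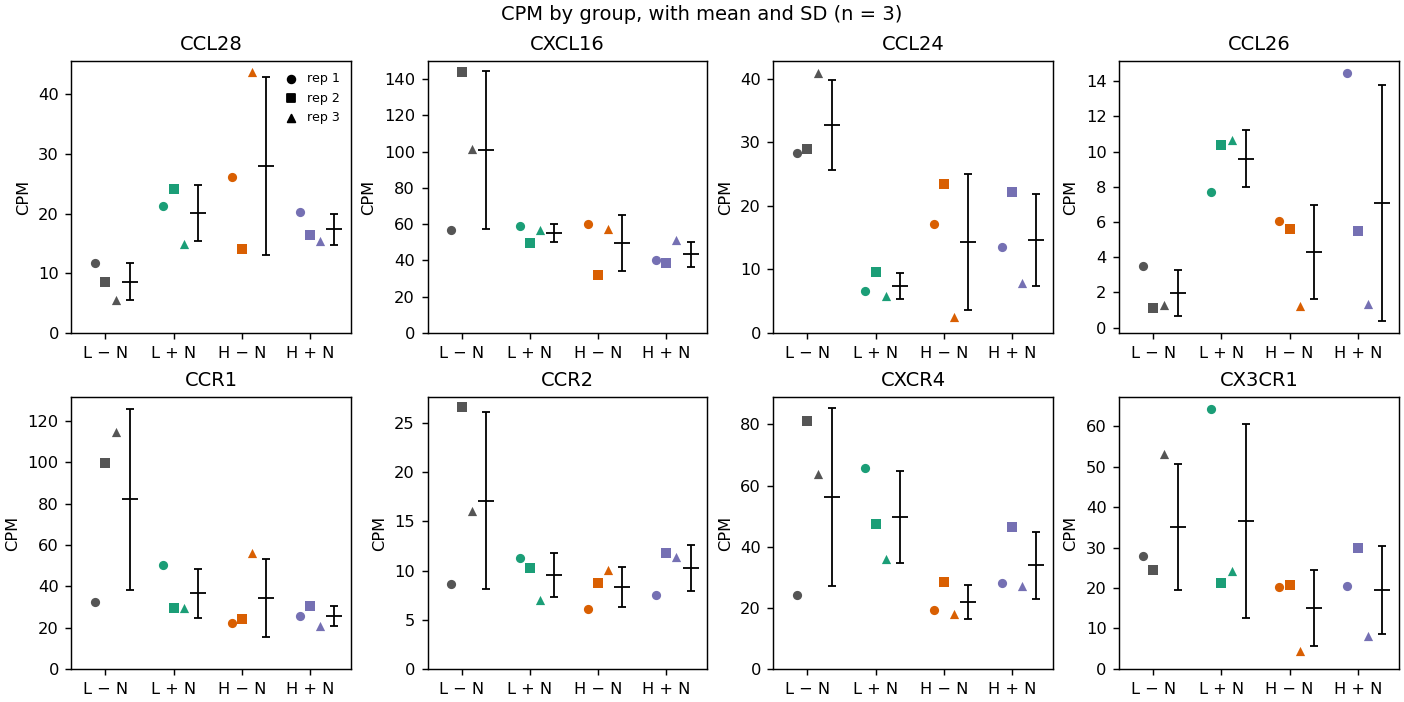
CPM of CCL28, CXCL16, CCL24, CCL26, CCR1, CCR2, CXCR4 and CX3CR1 in each library, with circles, squares and triangles for replicates 1, 2 and 3 and the group mean and SD beside them (n = 3). All L − N points of CCL28 lie below and all L − N points of CCL24 lie above those of the other groups, and L − N replicate 1 lies apart from replicates 2 and 3 in the panels of CCR1, CCR2 and CXCR4.

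CXCL16, a membrane-bound chemokine of macrophages and epithelium whose receptor is CXCR6, fell in H + N. The gene lies on chr12:52145100-52150267, plus strand, and overlaps no other gene. Its CPM was 57.0, 144.0 and 101.5 in L − N, 59.0, 49.6 and 56.6 in L + N, 60.1, 31.7 and 57.2 in H − N, and 40.4, 38.4 and 51.1 in H + N. The H + N libraries lay below all L − N libraries, while L + N and H − N each reached the lowest L − N library.

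Mean CXCL16 was 100.8 ± 43.5 CPM for L − N, 55.1 ± 4.89 CPM for L + N, 49.7 ± 15.6 CPM for H − N and 43.3 ± 6.86 CPM for H + N, with SD over 3 libraries. Against L − N, the edgeR log2 fold change of H + N was −1.22 ± 0.31 (SE), which is 2.33-fold lower, with an adjusted p of 0.0392. The difference was −1.02 ± 0.31 in H − N (adjusted p = 0.0777) and −0.87 ± 0.31 in L + N (adjusted p = 0.0964), and neither passed. Without L − N replicate 1 both passed (adjusted p = 0.00896 and 0.0188), and DESeq2 called the difference in H − N (0.0154). The effect of fiber on CXCL16 was −0.68 ± 0.22 (adjusted p = 0.134) and that of NCG −0.54 ± 0.22 (adjusted p = 0.164).

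Here too the call depended on single libraries. The adjusted p was 0.115 without L − N replicate 2, where the log2 fold change was −0.87, and 0.116 without L − N replicate 3. It was 0.106, 0.0749 and 0.0721 without H + N replicates 1, 2 and 3, and 0.0516, 0.0511 and 0.0524 without L + N replicates 1, 2 and 3. A fit of the 2 groups alone gave 0.0884. Except without L − N replicate 2, the log2 fold change in these fits was −1.36 to −1.15. Markers of macrophages, like CXCL16, were highest in L − N replicates 2 and 3. Their summed CPM was 1342, 3428 and 3557 in L − N against 1365, 1377 and 1093 in H + N. Of the 8, 3 fell in this comparison, where 3.58% of all genes were called. The part of macrophages in the difference was not tested. CXCR6, the receptor on tissue-resident T and NK cells, was at 2.101, 6.27 and 1.75 CPM in L − N and 5.01, 2.55 and 4.91 CPM in H + N, and these groups overlapped. CXCR6 overlaps FYCO1 on the opposite strand, which had 91.0 to 198.5 CPM. The study describes its libraries as strand-specific, but whether the counting used the strand is not given in the sources used here. It is thus not known whether reads of FYCO1 entered the CXCR6 counts.

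CCL24 and CCL26, both eotaxins that act on eosinophils through CCR3, are neighbours on chromosome 3 and 19805 bases apart. CCL24 lies on chr3:10347397-10361500 and CCL26 on chr3:10381306-10385677, both on the plus strand. Between L − N and L + N they stood in opposite order, CCL24 being higher in L − N and CCL26 in L + N. CCL24 was at 28.3, 29.0 and 40.8 CPM in L − N, 6.65, 9.61 and 5.82 in L + N, 17.2, 23.4 and 2.48 in H − N, and 13.6, 22.2 and 7.85 in H + N. All L − N libraries lay above all 9 others, as for 5.28% of all genes.

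For CCL26 the CPM was 3.50, 1.13 and 1.28 in L − N, 7.72, 10.4 and 10.7 in L + N, 6.06, 5.62 and 1.24 in H − N, and 14.4, 5.49 and 1.35 in H + N. The L + N libraries were all above the L − N libraries, whereas H − N and H + N each held 1 library within the L − N range, replicate 3 in both, which was also the lowest of its group for CCL24. In L + N against L − N the edgeR log2 fold change was −2.15 ± 0.62 (SE) for CCL24, with an adjusted p of 0.0514, and 2.28 ± 0.79 for CCL26, with an adjusted p of 0.0927. Neither passed with edgeR, and DESeq2 called both, with adjusted p of 0.0036 and 0.0197. CCL24 also passed with edgeR once H − N replicate 3 was removed (adjusted p = 0.00975) or H + N replicate 3 was (0.0489), and CCL26 without H + N replicate 3 (0.0483).

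The NCG effect was −1.06 ± 0.43 for CCL24 (adjusted p = 0.158) and 1.49 ± 0.55 for CCL26 (adjusted p = 0.124). For CCL24 it was −1.31 without H − N replicate 3 (adjusted p = 0.0164), and for CCL26 it was 1.74 without H + N replicate 3 (adjusted p = 0.0471). On high fiber alone, H + N against H − N gave 0.02 ± 0.60 for CCL24 (adjusted p = 0.996) and 0.71 ± 0.75 for CCL26 (adjusted p = 0.821). The interaction was 2.17 ± 0.85 for CCL24 (adjusted p = 0.334) and −1.57 ± 1.08 for CCL26 (adjusted p = 0.559). CCL26 in H + N against L − N had a log2 fold change of 1.84 ± 0.79 (adjusted p = 0.157), which dropped to 0.78 without H + N replicate 1. Their receptor CCR3 was at 0, 2.57 and 1.48 CPM in L − N, 2.82, 4.48 and 0.196 in L + N, 0.466, 0.347 and 0.483 in H − N, and 0.527, 0.761 and 0.981 in H + N. CCR3 was thus at 0 in 1 library and up to 4.48 CPM in another, with no call in any comparison. Of 6 markers of eosinophils and mast cells, 4 were in the table, and EPX, the eosinophil peroxidase, and CPA3 did not pass the filter. Nearly all of their summed CPM was KIT, a mast cell marker, at 162.8 to 427.2 CPM in L − N and 112.6 to 208.6 CPM in L + N, so the sum does not measure eosinophils. The part of eosinophils in these differences was not tested.

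Of the other abundant ligands, CCL14, a plasma chemokine that binds CCR1, was at 38.5, 55.4 and 43.0 CPM in L − N and 13.2, 28.4 and 21.5 CPM in L + N. It was at 17.98, 42.9 and 11.4 CPM in H − N and 25.7, 30.5 and 22.4 CPM in H + N. L − N lay above L + N and H + N without overlap, and H − N replicate 2 fell within the L − N range. The edgeR log2 fold change was −1.12 ± 0.42 in L + N (adjusted p = 0.11) and −0.92 ± 0.42 in H − N (adjusted p = 0.198) against L − N. Without H − N replicate 2 both passed, with −1.12 (adjusted p = 0.0399) and −1.63 (adjusted p = 0.047). DESeq2 on all libraries called the difference in L + N (adjusted p = 0.0461).

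CCL21 was at 124.6, 11.2 and 39.8 CPM in L − N, 49.5, 37.3 and 36.03 in L + N, 26.4, 85.4 and 49.0 in H − N, and 42.9, 55.2 and 38.9 in H + N. L − N held both the highest and the lowest library, and all groups overlapped. CCL21 had its smallest p in the NCG comparison, with −0.37 ± 0.46 (adjusted p = 0.659), and the sign turned to 0.23 without L − N replicate 1. CCL19, which shares the receptor CCR7 with it and lies 15883 bases away on chromosome 10, ranged from 3.14 to 10.8 CPM.

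CCL5, which attracts T cells and monocytes through CCR1 and other receptors, was at 12.9, 46.0 and 14.2 CPM in L − N, 35.9, 10.9 and 20.0 in L + N, 30.8, 22.0 and 33.1 in H − N, and 21.7, 20.3 and 34.8 in H + N. The groups overlapped, and the comparison with the smallest p, fiber, gave 0.22 ± 0.36 (adjusted p = 0.786). CXCL14, an epithelial chemokine, was at 61.8, 94.7 and 46.8 CPM in L − N and 43.3, 40.5 and 16.0 CPM in H − N, without overlap. The edgeR log2 fold change of CXCL14 was −1.02 ± 0.44 in H − N against L − N (adjusted p = 0.183) and −0.90 ± 0.31 for fiber (adjusted p = 0.155), and neither passed.

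CXCL12, the stromal ligand of CXCR4, was at 83.9, 24.7 and 38.2 CPM in L − N, 68.2, 45.7 and 55.3 in L + N, 96.4, 178.1 and 42.0 in H − N, and 79.0, 98.9 and 64.1 in H + N. Its highest library was H − N replicate 2, and L − N and H − N overlapped. The log2 fold change for fiber was 0.81 ± 0.35 (adjusted p = 0.235) and for H − N against L − N 1.11 ± 0.50 (adjusted p = 0.2). It was 1.75 without L − N replicate 1 (adjusted p = 0.0422) and 0.50 without H − N replicate 2.

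XCL1, a lymphokine made by NK and T cells, was low, at 2.55, 2.07 and 1.88 CPM in L − N, 2.67, 2.56 and 5.23 in L + N, 5.65, 3.54 and 3.04 in H − N, and 4.15, 2.34 and 4.23 in H + N. H − N and L + N lay above L − N without overlap, and H + N overlapped. The log2 fold change in H − N was 0.91 ± 0.39 (adjusted p = 0.175). Its receptor XCR1, which marks cross-presenting dendritic cells, ranged from 2.61 to 17.4 CPM and was highest in L − N replicate 2. CX3CL1, the ligand of CX3CR1, was among the steadiest members, at 40.7 to 85.5 CPM with an SD of 0.34 on the log2 scale.

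The ligands that attract neutrophils, CXCL8 and CXCL2, were high in single libraries. CXCL8, or interleukin 8, was at 2.36, 5.20 and 3.76 CPM in L − N, 26.4, 65.0 and 3.34 in L + N, 2.12, 1.80 and 143.7 in H − N, and 2.04, 2.28 and 6.50 in H + N. H − N thus held both the lowest library and the highest. CXCL2 was at 6.81, 11.3 and 6.05 CPM in L − N, 9.75, 33.4 and 9.42 in L + N, 8.96, 8.25 and 39.7 in H − N, and 9.62, 8.80 and 22.2 in H + N. H − N replicate 3 and L + N replicate 2 stood highest for both genes, which lie 221391 bases apart on chromosome 8.

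Their receptor CXCR2, carried by neutrophils, was at 1.15, 4.89 and 3.36 CPM in L − N, 30.6, 8.15 and 1.24 in L + N, 0.777, 0.485 and 26.8 in H − N, and 0.923, 0.598 and 6.07 in H + N. Here L + N replicate 1 was the highest library, ahead of H − N replicate 3. AMCF-II, a pig neutrophil attractant whose name falls outside the rule, was at 382.4 CPM in H − N replicate 3, 95.1 in L + N replicate 2 and 0.598 to 9.75 in the other libraries. Of 7 neutrophil markers, S100A8, S100A9, S100A12 and CSF3R were highest in H − N replicate 3, at 15.3, 53.7, 27.2 and 48.8 CPM, against at most 4.19, 9.96, 16.5 and 46.6 CPM elsewhere. ELANE was at 0.552 CPM there and 0.470 to 1.83 CPM elsewhere. FCGR3A was lowest in that library, at 69.0 CPM against 114.8 to 380.0 CPM elsewhere, and it fell in H − N against L − N (−1.43 ± 0.37, adjusted p = 0.0474). This call was lost without L − N replicate 2. The summed CPM of the 7 was 127.3 to 398.7 with L − N, 130.3 to 239.4 with L + N, 126.8 to 214.7 with H − N and 142.7 to 167.7 with H + N. Most of it was FCGR3A in every library but H − N replicate 3, so the sum largely follows this 1 gene. The part of neutrophils in these values was not tested.

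For CXCL8 the edgeR log2 fold change was 3.70 ± 1.52 in H − N against L − N (adjusted p = 0.164) and −3.77 ± 1.53 in H + N against H − N (adjusted p = 0.548). Without H − N replicate 3 these became −0.93 and 0.87, the opposite signs. The interaction of CXCL8 was −6.83 ± 2.13 (adjusted p = 0.279) and −2.19 without H − N replicate 3, and DESeq2 called it with an adjusted p of 0.0401.

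**Figure D5:**
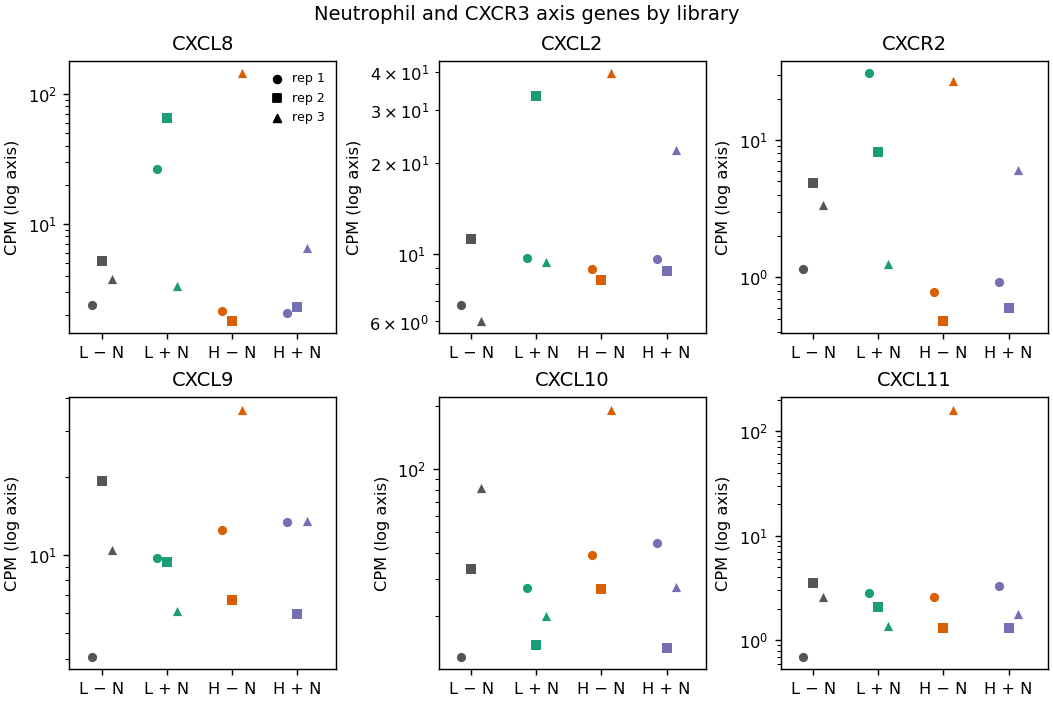
CPM on log axes of the neutrophil genes CXCL8, CXCL2 and CXCR2 (top) and the CXCR3 ligands CXCL9, CXCL10 and CXCL11 (bottom) in each library, with circles, squares and triangles for replicates 1, 2 and 3. The triangle of H − N is the highest point in every panel except CXCR2, where L + N replicate 1 is slightly higher.

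The ligands of CXCR3, which interferon induces, lie within 60129 bases of chromosome 8 and stood out in H − N replicate 3 alone. CXCL11 was at 0.700, 3.51 and 2.62 CPM in L − N, 2.86, 2.096 and 1.37 in L + N, 2.59, 1.32 and 161.0 in H − N, and 3.30, 1.30 and 1.78 in H + N. CXCL10 was at 12.8, 33.5 and 81.6 CPM in L − N, 27.3, 14.5 and 20.0 in L + N, 39.1, 27.0 and 192.5 in H − N, and 44.6, 14.1 and 27.3 in H + N. CXCL9 was at 36.2 CPM in H − N replicate 3 and 4.08 to 19.2 CPM in the other libraries. The other H − N libraries lay within the range of the remaining groups for all 3 genes.

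CXCL11 differed by 4.59 ± 1.47 on the log2 scale in H − N against L − N (adjusted p = 0.0901), and it was −0.21 without H − N replicate 3. For NCG it was −2.40 ± 0.999 for CXCL11 (adjusted p = 0.173) and −1.32 ± 0.55 for CXCL10 (adjusted p = 0.176). Without H − N replicate 3 the NCG values were 0.0015 for CXCL11 and −0.63 for CXCL10. CXCL10 and CXCL11 overlap ART3 on the opposite strand, which reached at most 1.04 CPM. The receptor CXCR3 had 1.52 CPM in H − N replicate 3 and 1.02 to 3.32 CPM over all libraries, so it was not high where its ligands were.

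CCR1 and CCR2, receptors of monocytes and macrophages, were highest in L − N replicates 2 and 3. CCR1, on chr13:29227218-29233862, was at 32.3, 99.6 and 114.6 CPM in L − N, 50.4, 29.6 and 29.6 in L + N, 22.3, 24.3 and 56.2 in H − N, and 25.6, 30.6 and 20.6 in H + N. H + N lay below L − N without overlap, and L − N replicate 1 lay within the range of L + N and H − N. The log2 fold change against L − N was −1.68 ± 0.47 in H + N (adjusted p = 0.0512), −1.26 ± 0.46 in H − N (adjusted p = 0.127) and −1.17 ± 0.46 in L + N (adjusted p = 0.129). None passed with edgeR. CCR1 in H + N passed under RLE scaling (adjusted p = 0.0488), with DESeq2 (0.00358), without L − N replicate 1 (0.00947) and when H − N replicate 3 was left out (0.0333). In H − N it passed with DESeq2 (0.0416) and without L − N replicate 1 (0.018), and in L + N without L − N replicate 1 (0.0253). CCR1 and XCR1 overlap on the same strand, so reads in their shared stretch cannot be told apart.

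CCR2 was at 8.66, 26.6 and 16.1 CPM in L − N, 11.3, 10.3 and 6.998 in L + N, 6.11, 8.74 and 10.1 in H − N, and 7.51, 11.7 and 11.4 in H + N. L − N replicate 1 lay among the other groups, and replicates 2 and 3 lay above them. The log2 fold change of CCR2 in H − N against L − N was −1.04 ± 0.38 (adjusted p = 0.121). It passed without L − N replicate 1, with −1.36 (adjusted p = 0.0193), and with DESeq2 on all libraries, with −1.06 (adjusted p = 0.0474).

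CXCR4, found on most leukocytes, was at 24.3, 81.0 and 63.8 CPM in L − N, 65.8, 47.3 and 35.8 in L + N, 19.4, 28.4 and 17.9 in H − N, and 28.2, 46.4 and 27.0 in H + N. H − N held the lowest values, and L − N replicate 1 lay among them. The log2 fold change was −1.36 ± 0.40 in H − N against L − N (adjusted p = 0.073) and −0.96 ± 0.28 for fiber (adjusted p = 0.118). Without L − N replicate 1 they were −1.72 (adjusted p = 0.00558) and −1.14 (adjusted p = 0.0112), both past the thresholds. DESeq2 on all libraries called the difference in H − N (adjusted p = 0.0097).

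CX3CR1 was at 27.8, 24.5 and 53.1 CPM in L − N, 64.2, 21.3 and 24.3 in L + N, 20.2, 20.7 and 4.35 in H − N, and 20.4, 29.9 and 8.22 in H + N. Its highest library was L + N replicate 1. H − N lay below L − N without overlap, and replicate 3 was the lowest in both high-fiber groups. The fiber effect was −1.06 ± 0.45 (adjusted p = 0.224). Of the remaining receptors, those of T and B cells were low, with CCR4 at 1.25 to 6.27 CPM, CCR6 at 1.95 to 5.39, CCR7 at 0.132 to 3.95, CCR8 at 0.0627 to 2.29 and CXCR5 at 0.134 to 1.07. No comparison called any of them, and CXCR5 overlaps BCL9L on the opposite strand, which had 82.8 to 123.5 CPM.

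Markers of macrophages were highest in the libraries where CCR1 and CCR2 were. CX3CR1 peaked instead in L + N replicate 1 (64.2 CPM), where CXCR4 (65.8 CPM) was above L − N replicate 3 (63.8 CPM). The summed CPM of 8 macrophage markers was 1342, 3428 and 3557 in L − N, 1613, 1540 and 1150 in L + N, 947.0, 1012 and 691.6 in H − N, and 1365, 1377 and 1093 in H + N. L − N replicates 2 and 3 were again the highest libraries, and none of the 8 markers was at 0. With edgeR, 6 of the 8 fell in H − N (2.91% of all genes were called), 1 in L + N (3.99%) and 3 in H + N (3.58%), each against L − N. All 3 counts were 0 when replicate 2 or replicate 3 of L − N was left out, and they were 8, 7 and 7 without L − N replicate 1. Other single libraries also took a count to 0 when left out, H − N replicates 1 and 3 that of H − N, L + N replicates 1 and 3, H − N replicate 2 and H + N replicate 1 that of L + N, and H + N replicates 1 and 3 that of H + N. The part of macrophages in the receptor values was not tested.

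Atypical receptors bind chemokines without signaling to migration, and some of them remove chemokines from the tissue. Of 7 such or related receptors, 0 rose in any comparison. For NCG 1 fell (1.8% of all genes were called), and against L − N 2 fell in H − N (2.91%) and 1 in H + N (3.58%). ACKR1, the Duffy receptor of venules, fell with NCG (log2 fold change −1.09 ± 0.22, adjusted p = 0.0149). ACKR4, which scavenges CCL19 and CCL21, fell in H − N (−1.67 ± 0.39, adjusted p = 0.0378) and H + N (−1.57 ± 0.39, adjusted p = 0.0365) against L − N. CMKLR1, the chemerin receptor of macrophages and not itself an atypical receptor, fell in H − N against L − N (−1.53 ± 0.29, adjusted p = 0.0235).

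The calls in this list of receptors also depended on single libraries. In the 12 fits that each left out 1 library, ACKR1 passed in 9, with an absolute log2 fold change of 0.97 when L + N replicate 1 or H − N replicate 3 was left out and of 0.996 without H + N replicate 3. ACKR4 passed in 3 of 12 fits in both comparisons, and without L − N replicate 3 its adjusted p was 0.145 in H − N and 0.136 in H + N. CMKLR1 passed in 7 of 12, with adjusted p up to 0.0993 without L − N replicate 3. ACKR4 was at 6.81, 13.8 and 26.3 CPM in L − N and 4.17 to 5.92 CPM in H − N and H + N together.

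Downstream of the receptors, 44 genes of G protein, PI3K and small GTPase signaling were all tested. Over all genes, 2.91% were called in H − N, 3.58% in H + N and 3.99% in L + N against L − N. Calls of 1 or 2 of the 44 genes are close to these shares. In H − N against L − N 0 rose and 2 fell, PLCB2, a phospholipase of hematopoietic cells (−1.95 ± 0.40, adjusted p = 0.0279), and RGS2, a regulator that shortens G protein signals (−1.25 ± 0.20, adjusted p = 0.0181). The H + N libraries had 0 that rose and 2 that fell against L − N, among them RGS2 (−1.10 ± 0.20, adjusted p = 0.0176). In L + N against L − N 1 rose, ROCK2, a kinase of the actin cytoskeleton (1.07 ± 0.27, adjusted p = 0.0325), and 0 fell. The list as a whole had 36, 35 and 37 genes below 0 in these comparisons, with medians of −0.25, −0.31 and −0.33, against medians of 0.03, 0.02 and −0.02 over all genes, and the same numbers of genes lay below 0 under RLE scaling. Without L − N replicate 3 the counts of called genes were 0 in all 3 comparisons, and without L − N replicate 1 they were 12, 7 and 1.

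Among 30 inducers and NF-kB regulators, of which 29 were tested, IRAK2 was the only gene called. That is 1 of 29 in each of 3 comparisons with L − N. Of all genes, 2.91% were called there in H − N, 3.99% in L + N and 3.58% in H + N. IRAK2, a kinase of interleukin 1 and Toll-like receptor signaling, fell in all 3 groups against L − N, with −1.64 ± 0.36 in H − N (adjusted p = 0.0319), −1.38 ± 0.36 in L + N (adjusted p = 0.0358) and −1.34 ± 0.36 in H + N (adjusted p = 0.0443). Its CPM was 21.8, 50.0 and 71.7 in L − N and 13.7 to 23.2 in the other 9 libraries, with L − N replicate 1 among the latter. The calls held in 7, 6 and 2 of the 12 fits with a single library removed, and 0 of the 3 held when replicate 2 or replicate 3 of L − N was left out.

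Of 19 genes of leukocyte adhesion and rolling, 17 were tested. Over all genes, 2.91% were called in H − N, 3.99% in L + N and 3.58% in H + N against L − N, and 1.8% for NCG. In H − N against L − N 0 rose and 4 fell, the junction protein JAM3 (−1.03 ± 0.23, adjusted p = 0.0339), the selectin ligand SELPLG (−1.72 ± 0.39, adjusted p = 0.0342), the integrin ITGAM of myeloid cells (−2.27 ± 0.53, adjusted p = 0.0372) and its partner ITGB2 (−1.19 ± 0.28, adjusted p = 0.0374). In L + N against L − N 0 rose, and JAM3 (−1.07 ± 0.23, adjusted p = 0.0193) and the endothelial PECAM1 (−1.09 ± 0.20, adjusted p = 0.011) fell. SELE, the endothelial selectin, rose in H + N against L − N (2.23 ± 0.54, adjusted p = 0.0337), and ITGA4, an integrin of lymphocytes, rose with NCG (1.24 ± 0.31, adjusted p = 0.0368), a call that held in 5 of the 12 fits with a single library removed. SELE was at 11.07, 6.68 and 30.7 CPM in H + N and 2.88 to 4.30 CPM in L − N, and its log2 fold change was 1.37 without H + N replicate 3, the call holding in 6 of 12 such fits. The 4 calls in H − N were each lost without L − N replicate 2 or 3. They were also each lost without H − N replicate 1, 2 or 3. In L + N, the call of JAM3 held in 7 and that of PECAM1 in 10 of the 12 fits with a single library removed.

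Of 10 myeloid growth factors and receptors, 8 were tested. Over all genes, 2.91% were called in H − N and 3.58% in H + N against L − N. Of the 8, only CSF1R, the receptor that maintains macrophages, was called. It fell in H − N (−1.66 ± 0.31, adjusted p = 0.0225) and H + N (−1.35 ± 0.30, adjusted p = 0.0284) against L − N, and both calls held in 8 of the 12 fits with a single library removed. Without L − N replicate 2 the values were −1.56 (adjusted p = 0.0562) and −1.25 (adjusted p = 0.0697). Of 6 chemokines outside the naming rule, 3 were in the table, 2 were tested and 0 were called with edgeR in any comparison.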

How the data were processed

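Endometrial RNA was measured in 12 libraries, each assigned by its deposited title to 1 of the 4 diets. The authors deposited raw read counts per gene and FPKM values, and the FPKM values were recomputed from the counts, gene lengths and library totals to within 1.9e-05 percent. The submitters' processing notes name fastp 0.22.0, HISAT2 2.1.0, HTSeq 0.9.1 and Sscrofa11.1. The study describes strand-specific libraries, while the counting strand is not given in the sources used here. All 47 members were found in the RefSeq table of that assembly with the same coordinates. No sequences were used here. Values of 1 receptor and 1 signaling gene, which enter the counts, are not reported here.

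Counts were tested in R 4.3.3 with edgeR 4.0.16 (filterByExpr on 4 groups, TMM, quasi-likelihood, 1 mean per group, 8 residual degrees of freedom), with contrasts of the group means and Benjamini-Hochberg adjustment over 15351 genes. TMM factors entered the CPM, and log2 CPM had a prior count of 2. SE is the absolute log2 fold change divided by the square root of F. The biological coefficient of variation was 0.269, and chi-square per gene between replicates was 22.8 to 98.6, so no libraries were duplicates and the spread between libraries, more than depth, limits precision. The floor of 3 counts covers counting error only. The method was tested on simulated data.

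The members and all gene lists were chosen with earlier results of these data known. Values of every library are given by rule for called members and for the 5 ligands and 5 receptors of highest mean FPKM. Members with an unadjusted p under 0.05, and CXCL2, CXCR2, CXCL9, CCR3, CCR10, CXCR6 and AMCF-II, were added after their values were seen, as was ITGB2. Alternatives were RLE scaling, no filter, a filter of 1 CPM in 3 libraries, DESeq2 1.42.0, a replicate block, each library left out, the 2 compared groups alone, and, chosen after seeing the data, H − N replicate 3 and L + N replicate 2 both removed.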

Additional observations from a re-analysis of the deposited data

How the results depend on the processing

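The number of members called depended on the setting. With DESeq2 it was 1 for NCG (CCL26), 2 for the interaction (CXCL8 and CCL28), 6 in H − N, 4 in L + N and 2 in H + N against L − N, and the cause was not tested. With RLE scaling it was 2 in H + N against L − N (CXCL16 and CCR1). With the replicate block it was 0 in H − N, 2 in L + N (CCL24 and CCL26) and 0 in H + N against L − N, and with only the 2 groups compared it was likewise 0, 2 and 0. Of 18 pairs of libraries with the same number, 3 had deviations correlated over 0.1, with correlations from −0.322 to 0.283. In every other group at once, 0 libraries correlated best with their own number. Few libraries would meet this last rule without pairing either, so it cannot decide whether the numbers pair the samples. Leaving out each library in turn gave 0 to 2 calls for fiber, 0 to 1 for NCG, 0 to 1 for the interaction, 0 to 7 in H − N, 0 to 4 in L + N and 0 to 3 in H + N against L − N, and 0 in the other comparisons. The highest counts were without L − N replicate 1, except for NCG, where 1 was called without H − N replicate 3 (CCL24) and 1 without H + N replicate 3 (CCL26). Without both H − N replicate 3 and L + N replicate 2 it was 1 for NCG (CCL24), 0 in H − N and 1 in L + N against L − N (CCL24). Removing the filter or requiring 1 CPM in 3 libraries kept every count within 1.5 times. The shares of all genes called under these other settings are not given here. These counts thus do not show whether members changed more than other genes did.

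The sign of the fold change was followed through the settings for only 46 of the 312 member tests, in 18 genes. These had an unadjusted p under 0.05 or belonged to the members of highest mean FPKM. Among them, signs that turned were those of CCL21, CCL5, CXCL11 and CXCL8, and the other member tests were not checked for this. Leaving out each library in turn, the log2 fold change of CCL21 for NCG ran from −0.62 to 0.23. That of CXCL11 ran from −5.27 to 0.11 in H + N against H − N, −0.21 to 5.16 in H − N against L − N, −2.68 to 0.0015 for NCG, −0.11 to 2.57 for fiber and −5.18 to 0.21 for the interaction. That of CXCL8 ran from −4.50 to 0.87 in H + N against H − N and −0.93 to 4.27 in H − N against L − N. With both libraries removed, CXCL11 gave 0.11, −0.21, 0.0057, −0.11 and 0.20 in the same order, CXCL8 gave 0.87 and −0.94, and CCL5 for fiber gave −0.0055. In these fits of CXCL11 and CXCL8 the single high library of H − N had been left out. The adjusted p of CXCL11 with DESeq2 was not available. With 3 libraries a group, CXCL8 and CXCR2, whose SD exceeded 2 on the log2 scale, were measured with little precision.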
